A study of Mus musculus with 60 samples.

Results

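The carcinogens 2,4-diaminotoluene (DAT) and benzo(a)pyrene (BaP) were set directly against each other after 24 h in Balb/c 3T3 cells, which are fibroblasts of BALB/c mouse embryos kept as a permanent line. The comparison rests on 6 of the 60 arrays of the series, 3 of cells given 700 µM DAT and 3 of cells given 1.5 µM BaP, taken by their labels. Each dose was the one the submitters determined as the IC20 for 24 h, so the doses differ in amount and were chosen for a like degree of inhibition. The 3 DMSO arrays of the same set, from cells kept in 0.75% DMSO, are given beside them. The labels do not say whether treated dishes held that much DMSO too. The cells were seeded thinly and treated before they were confluent. The design text speaks of triplicates without saying whether the 3 came from separate cultures, so the spread among arrays may be technical. The p-values cover that spread alone, estimated jointly over the 30 arrays of the IC20 set. Those arrays form 10 groups, which also hold methylcholanthrene, acetylaminofluorene and groups at 120 h. A second set of arrays, which shares none with the first, holds DAT at 50 µM and BaP at 0.5 µM for 24 h, doses taken from the literature.

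BaP is a polycyclic aromatic hydrocarbon, a flat molecule of fused rings, and a strong ligand of the aryl hydrocarbon (Ah) receptor, the transcription factor that switches on the cytochrome P450 genes Cyp1a1 and Cyp1b1. Those enzymes oxidise BaP, in further steps together with epoxide hydrolase, to diol epoxides that bind DNA. DAT is an aromatic amine with a single ring, which P450 enzymes oxidise at a nitrogen before conjugation makes it reactive. Cells answer such products with conjugating enzymes driven by the Nrf2 transcription factor, with p53 targets after DNA damage and with the Atf4 and unfolded protein responses after stress on protein synthesis and folding.

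Of 11384 genes tested, 420 differed between DAT and BaP at an adjusted p under 0.05 (3.69%), 234 of them higher with DAT (2.06%) and 186 lower (1.63%). Without further normalization of the deposited values the balance turned, with 265 higher and 297 lower. The main fit leaves out the replicate number. With the replicate number as a block 972 genes were higher (8.54%) and 936 lower (8.22%), and counts given below with that block are to be read against these shares. Differences are DAT minus BaP on the scale of log2(normalized intensity + 16), ± SE from the fit with n = 3 arrays per group, and adjusted p-values are from limma's moderated test with Benjamini-Hochberg adjustment. All 3 DAT arrays lay above all 3 BaP arrays for 11% of the genes tested and below them for 9.71%. The scale understates the change of dim genes. The difference reached 2-fold for 22 genes on the higher side and 16 on the lower. Set against the DMSO controls, which both treatments share, 238 of the 420 were called for DAT alone, 51 for BaP alone, 14 for both in one direction, 2 for both in opposite directions and 115 for neither. Those counts are to be read beside the shares of all genes called against DMSO, 9.19% with DAT and 2.72% with BaP. Intensities are array units whose normalized median over all probe sets was 74.8, so a gene near or below that level is dim. In RNA from a whole dish, fewer cells that express a gene and less RNA per cell cannot be told apart.

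**Figure D1:**
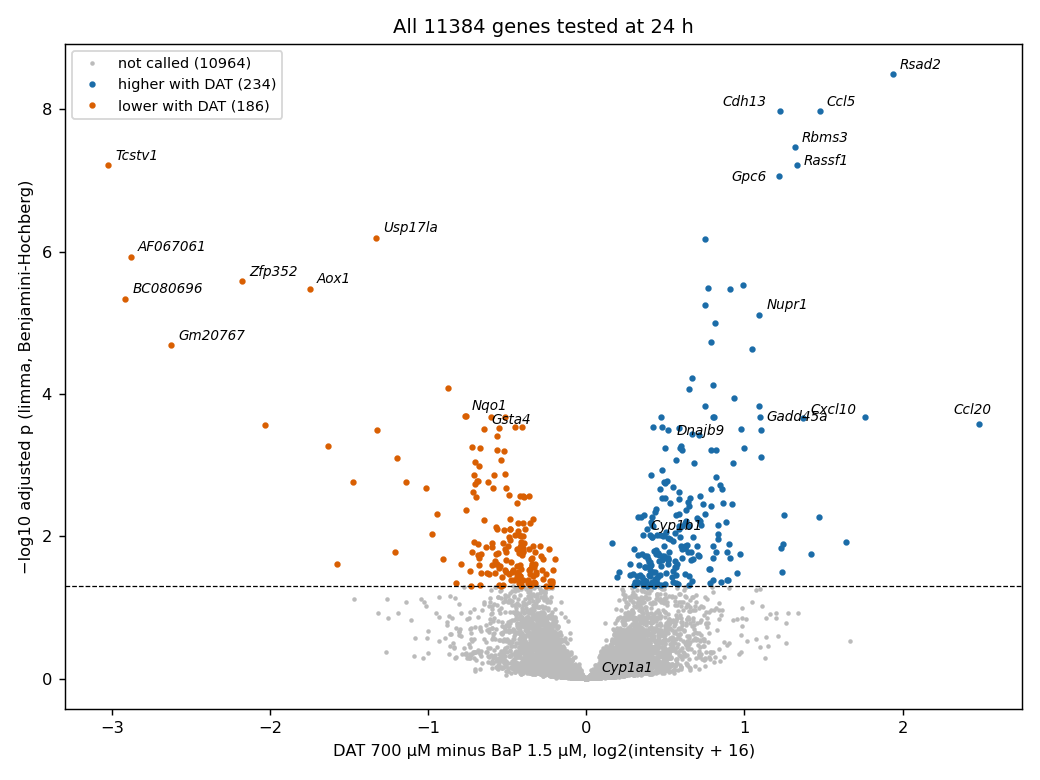
Difference of each of the 11384 genes between DAT and BaP (x axis, log2 units) against the −log10 adjusted p (y axis). Blue points are the 234 genes higher with DAT, orange points the 186 lower, grey points the genes not called, and the dashed line marks the adjusted p of 0.05. Rsad2 stands highest on the right and Tcstv1 farthest to the left, while Cyp1a1 lies near 0.

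The DAT and BaP arrays overlapped in median intensity and in the actin control probe ratio. The deposited median intensity was 56.3 to 73.1 with DAT, 59.3 to 84.5 with BaP and 58.8 to 65.5 with DMSO, and replicate 2 had the highest median in each of these groups. The actin 3′ to 5′ control probe ratio, a sign of RNA integrity, was 0.38 ± 0.08 log2 units with DAT and 0.40 ± 0.08 with BaP (SD, n = 3 each, exact permutation test, two-sided, p = 0.7, where 0.1 is the smallest possible), against 0.29 ± 0.07 with DMSO. Of 13 fibroblast markers on the array, 12 lay above the array median on all arrays of each of these groups, with a summed intensity of 134635 to 146931 with DAT and 129701 to 134381 with BaP. No endothelial marker of 9 and no skeletal muscle marker of 8 did so, and of 10 epithelial markers 1, Epcam, did with DAT. Of 7 adipocyte markers 2, Fabp4 and Lpl, did in every group, with a summed level over the list of 3959 to 5861 with DAT, 3166 to 4236 with BaP and 3463 to 4639 with DMSO. Of 9 macrophage and leukocyte markers 3 did in every group, and the list's summed level was 1252 to 1410.4 with DAT, 1071 to 1262 with BaP and 983 to 1211 with DMSO.

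Among the Ah receptor genes Cyp1a1 was raised by both treatments with no difference called, Cyp1b1 was higher with DAT and Nqo1 was lower. Cyp1a1, the P450 that oxidises polycyclic hydrocarbons, was at 123, 138 and 155 with DMSO, 5634, 4697 and 5569 with BaP and 5744, 5002 and 5662 with DAT. The treated groups overlapped, and their difference was 0.05 ± 0.17 (adjusted p = 0.95), with a 95% interval of -0.30 to 0.40. Cyp1b1, the related P450 that is abundant in fibroblasts, was at 12334, 11587 and 10685 with BaP and 15967, 14764 and 13653 with DAT, against 4381, 4401 and 4023 with DMSO. All DAT arrays lay above all BaP arrays, and Cyp1b1 was higher with DAT by 0.36 ± 0.08 (adjusted p = 0.00975). That call was lost without DAT replicate 1 (adjusted p = 0.0688) or BaP replicate 3 (0.0705). Nqo1, a quinone reductase under both the Ah receptor and Nrf2, ran the other way, at 748, 792 and 719 with DMSO, 2690.1, 2898 and 2696 with BaP and 1604, 1758 and 1492 with DAT. Both treatments raised Nqo1, and it was lower with DAT than with BaP by a difference of -0.77 ± 0.12 (adjusted p = 0.000203). Tiparp, the receptor's feedback inhibitor, was at 7363, 7555 and 6350.0 with BaP and 6202, 5720.4 and 4870.2 with DAT and did not pass (-0.34 ± 0.14, adjusted p = 0.196), while the fit with the replicate block gave 0.021. The receptor itself, Ahr (-0.07 ± 0.12), and the aldehyde dehydrogenase Aldh3a1 (-0.23 ± 0.27) did not pass. Of the 5 tested members of the Ah receptor enzyme list, Cyp1b1 was called higher and Nqo1 lower, with a list median of -0.02 against 0.003 over all genes.

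The enzymes of conjugation and oxidation called in the lists below were lower with DAT than with BaP. Aox1, an aldehyde oxidase that oxidises aldehydes and nitrogen rings, was at 150.4, 140.5 and 198 with DMSO, 342, 329 and 312 with BaP and 93.1, 46.2 and 141 with DAT. The BaP arrays lay above all others, and the DAT arrays overlapped DMSO at a single array of each. Aox1 rose with BaP by 0.95 ± 0.20 and fell with DAT (-0.80 ± 0.20), and the direct difference was -1.75 ± 0.20 (adjusted p = 3.33e-06). Gclc, the catalytic subunit of the enzyme that limits glutathione synthesis, was at 1952, 1967 and 1861 with BaP and 1291, 1192 and 1085 with DAT, a difference of -0.69 ± 0.13 (adjusted p = 0.00166), and the DAT arrays overlapped DMSO, at 1404, 1285 and 1174. Gsta4, a glutathione transferase for aldehydes from oxidised lipids, was at 5619.6, 5141 and 5593 with BaP and 3479, 3407 and 3523 with DAT (-0.65 ± 0.10, adjusted p = 0.000315). With DMSO it was at 3582, 3961 and 4089, BaP raised it by 0.49 ± 0.10, and DAT gave -0.16 ± 0.10 against DMSO, which did not pass (adjusted p = 0.414). Gstm1, another transferase, was lower by a difference of -0.40 ± 0.08 (adjusted p = 0.00652). Its probe set can also bind RNA of near relatives, so the value may hold several Gstm genes.

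Over all genes 1.63% were lower with DAT than with BaP and 2.06% higher. By list, 3 of 13 glutathione transferases were lower and none higher (median -0.08), and 2 of 25 Nrf2 targets were lower and none higher (median -0.08). With the replicate block these counts were 5 and 7 lower, and the Nrf2 count was 1 without any single array. Against DMSO, where 2.72% of all genes were called with BaP (1.37% rising and 1.35% falling), 6 of the 13 transferases and 7 of the 25 Nrf2 targets rose with BaP. With DAT, where 9.19% of all genes were called (4.87% rising and 4.32% falling), 2 and 4 rose. Heme synthesis, which supplies P450 enzymes, had 0 of 14 members called in the direct comparison in either direction (median -0.05, and 1 higher and 3 lower with the replicate block). Coproporphyrinogen oxidase, Cpox, was raised by both, to 2330.5, 1986 and 1799 with BaP and 1779, 1501 and 1500.4 with DAT from 713, 587 and 524 with DMSO.

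**Figure D2:**
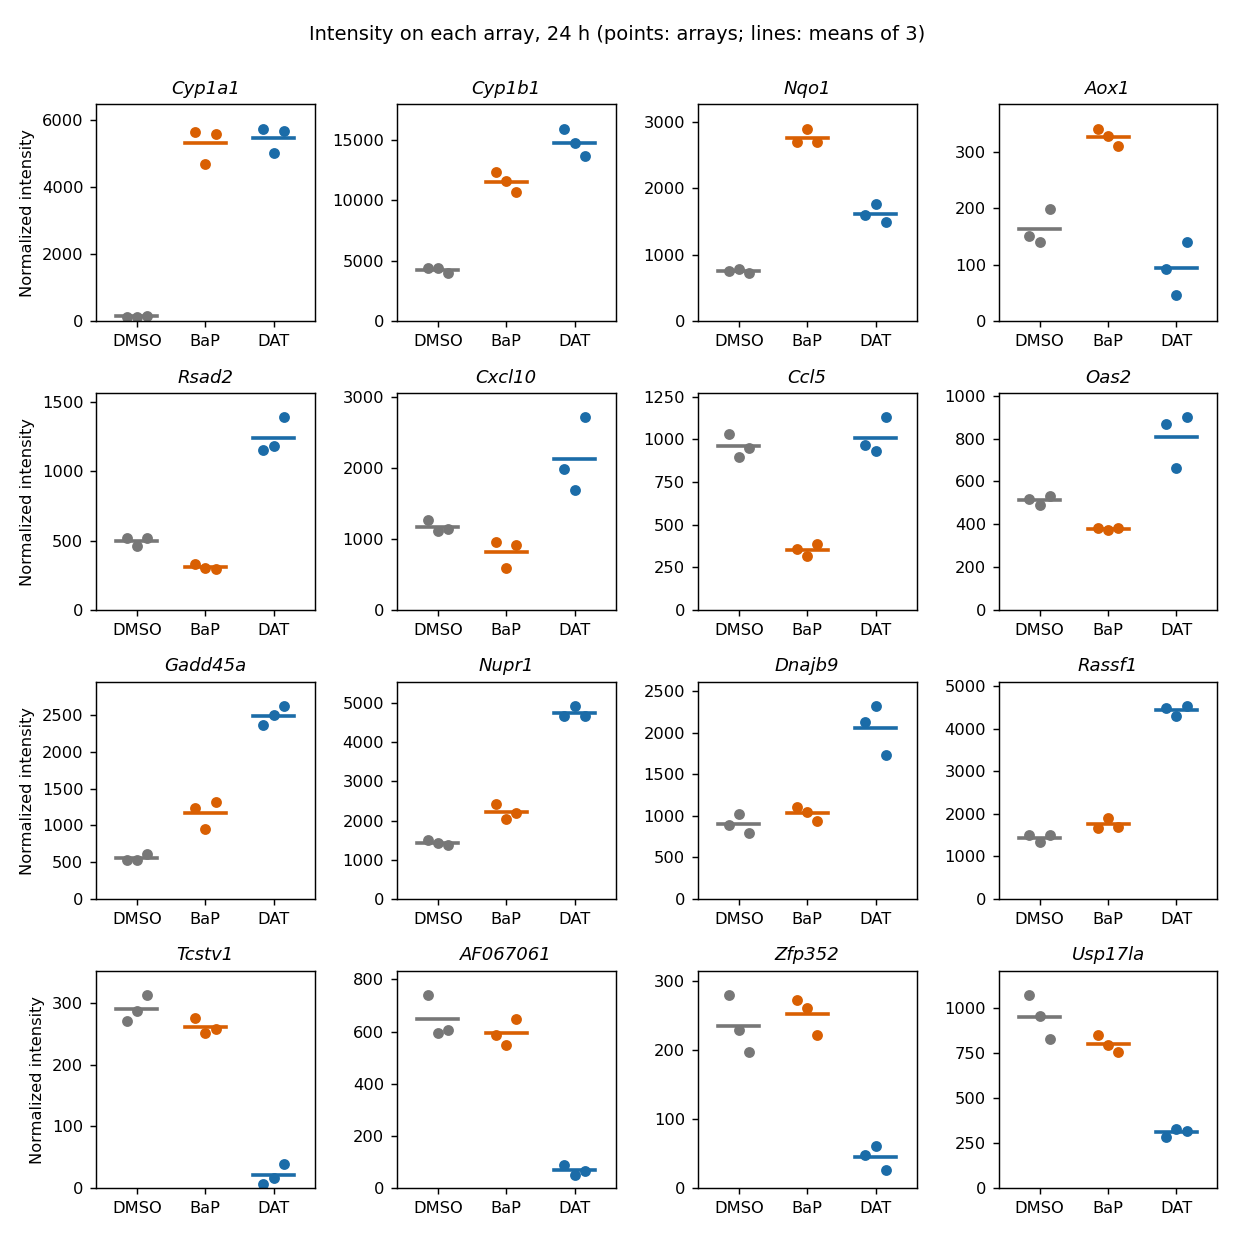
Normalized intensity of 16 genes (y axis, linear, from 0) on the 3 arrays each of DMSO, BaP 1.5 µM and DAT 700 µM at 24 h, with a line at each mean. Cyp1a1 is alike in both treatments, Nqo1 and Aox1 are lower with DAT, Ccl5 is low with BaP alone, and Tcstv1, AF067061, Zfp352 and Usp17la are low with DAT alone.

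Interferon-stimulated genes made up the list with the most members called among the 48 lists examined. These genes are switched on when the interferon receptor activates Stat factors, or directly by Irf factors, and many encode proteins that block viruses. Of 29 tested, 15 were higher with DAT and none lower, against 2.06% and 1.63% of all genes, and the list median was 0.54. Leaving out 1 array gave 11 to 16 members, the 6 arrays fitted alone gave 6, and the replicate block gave 21. Against DMSO, 13 of the 29 fell and 2 rose with BaP, where 1.35% of all genes fell and 1.37% rose. With DAT 6 rose and none fell, where 4.87% of all genes rose and 4.32% fell. The direct difference thus held both a lower level with BaP and, for some genes, a higher level with DAT.

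Rsad2, which encodes the antiviral enzyme viperin, was at 522, 459 and 517 with DMSO, 335, 302 and 298 with BaP and 1151, 1183 and 1389 with DAT. The groups did not overlap in any pair, and Rsad2 fell with BaP (-0.65 ± 0.14) and rose with DAT (1.28 ± 0.14), which made a direct difference of 1.94 ± 0.14 (adjusted p = 3.21e-09). Cxcl10, a chemokine that draws T cells, was at 952, 588 and 910.4 with BaP and 1989, 1692 and 2708 with DAT (1.37 ± 0.21, adjusted p = 0.000217), against 1265, 1117 and 1139.5 with DMSO. Oas2, an oligoadenylate synthetase that senses double-stranded RNA, was at 381, 374 and 382 with BaP and 867, 661 and 898 with DAT (1.05 ± 0.14, adjusted p = 2.3e-05). Its relative Oas1a was at 1919, 1989 and 2166 with DMSO, 1298, 1306 and 1399.7 with BaP and 2619, 2195 and 2935 with DAT (0.94 ± 0.13, adjusted p = 0.000116). For both synthetases the BaP arrays lay below and the DAT arrays above every DMSO array. Irf7, the factor that amplifies interferon output, was at 502, 436 and 494 with DMSO, 327, 239.7 and 254 with BaP and 732, 447 and 526 with DAT (0.99 ± 0.17, adjusted p = 0.000583). The DAT values of Irf7 overlapped those of DMSO, and the BaP values lay below both. Ifit3, which binds viral RNA complexes, followed the same order, at 1127, 954 and 1310.1 with BaP and 2204, 1485 and 2410.3 with DAT (0.82 ± 0.15, adjusted p = 0.00148). Mx2, a dim antiviral GTPase gene, was at 98.1, 16.6 and 53.7 with BaP and 203, 64.3 and 164 with DAT, and its difference of 1.20 ± 0.42 did not pass (adjusted p = 0.121, 0.0046 with the replicate block).

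The start regions of 4 of these genes are shown because each holds the interferon element searched for, GAAA, any 2 bases and GAAA again on either strand, in the 250 bases before the annotated start. The sequences are RefSeq's, build GRCm38.p6, each written 5′ to 3′ along the gene's own strand and ending at the base before the start. Capitals mark the element. In Oas1a its 2 matches overlap. They lie at chr12:26456453-26456702 (minus strand), chr5:92348890-92349139 (minus), chr5:120907526-120907775 (minus) and chr19:34583279-34583528 (plus).
Rsad2: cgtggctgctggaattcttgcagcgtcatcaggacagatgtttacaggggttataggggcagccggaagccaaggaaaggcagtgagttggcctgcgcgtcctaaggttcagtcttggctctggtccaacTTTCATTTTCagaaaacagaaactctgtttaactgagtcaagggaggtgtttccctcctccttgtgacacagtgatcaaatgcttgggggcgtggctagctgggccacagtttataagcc
Cxcl10: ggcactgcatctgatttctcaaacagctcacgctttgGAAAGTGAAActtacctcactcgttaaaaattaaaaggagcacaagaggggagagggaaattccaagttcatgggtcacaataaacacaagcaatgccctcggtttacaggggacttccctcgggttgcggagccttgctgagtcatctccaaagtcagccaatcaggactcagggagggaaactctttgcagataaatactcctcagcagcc
Oas1a: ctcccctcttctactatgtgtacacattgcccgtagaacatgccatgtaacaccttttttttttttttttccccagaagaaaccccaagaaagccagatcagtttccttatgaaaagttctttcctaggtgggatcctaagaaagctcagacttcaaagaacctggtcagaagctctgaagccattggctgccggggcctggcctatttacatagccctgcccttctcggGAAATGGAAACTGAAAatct
Ifit3: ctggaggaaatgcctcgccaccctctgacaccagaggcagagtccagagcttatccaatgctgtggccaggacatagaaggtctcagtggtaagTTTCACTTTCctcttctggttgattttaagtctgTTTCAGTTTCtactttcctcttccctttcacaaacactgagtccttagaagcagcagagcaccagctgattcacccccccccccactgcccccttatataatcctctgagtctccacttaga

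The element was present in 2.98% of the 32851 start regions of the same length. Of the 15 called interferon genes, 12 had a region in the table and 8 of those held it. Of the 14 not called, 9 had a region and 4 held it. A match describes the letters only.

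Several chemokine genes were also higher with DAT. Of 22 tested chemokine and cytokine genes, 5 were higher with DAT, Cxcl10 among them, and 1 lower, against 2.06% and 1.63% of all genes. The list median was 0.10, and with the replicate block 7 were higher and 1 lower. Ccl7 and the lower gene, Vegfc, lost their calls in 5 of 6 fits without 1 array (limma's adjusted p up to 0.202 and 0.197). Ccl5, which attracts T cells and monocytes, was at 1035, 898 and 948 with DMSO, 357, 314 and 386 with BaP and 965, 931 and 1129 with DAT. DAT overlapped DMSO, BaP lay below both, and the difference was 1.48 ± 0.12 (adjusted p = 1.07e-08). Ccl9, a monocyte chemokine of the mouse, followed the same order, at 693, 640.2 and 822 with BaP, 1444, 1447 and 1795 with DAT and 1565, 1426 and 1806 with DMSO (1.10 ± 0.19, adjusted p = 0.000768). Ccl20, which draws dendritic cells and lymphocytes, differed the other way from DMSO. It was near the floor at 8.83, 6.54 and 32.3 with DMSO and 8.39, 11.0 and 9.17 with BaP and at 139, 86.5 and 166 with DAT (2.48 ± 0.39, adjusted p = 0.000268, and 3.61 and 1.38 with a pseudocount of 1 and 64). In the antigen processing list, which serves display of peptides on class I molecules, 3 of 12 members were higher with DAT and none lower (7 with the replicate block). Leaving out DAT replicate 2 left 2 of the 3 calls, and leaving out any other array left none. The proteasome subunit Psmb10 was at 2615, 2777 and 2886 with BaP and 3653, 3583 and 4254 with DAT (0.47 ± 0.13, adjusted p = 0.0347). Each of these 3 calls, for Psmb10, H2-K1 and H2-D1, was lost when an array was left out, at adjusted p of up to 0.169, 0.178 and 0.16. The summed macrophage and leukocyte marker level was 1252 to 1410.4 with DAT and 1071 to 1262 with BaP, and its part in these differences was not tested.

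Most stress genes that differed were higher with DAT. Gadd45a, which slows division after DNA damage, was at 536, 525 and 610.0 with DMSO, 1230.2, 956 and 1315 with BaP and 2362, 2495 and 2618 with DAT. The groups did not overlap, and the difference between the treatments was 1.10 ± 0.16 (adjusted p = 0.00015). Nupr1, a small nuclear protein induced by stress and a target of Atf4, was at 1517, 1424 and 1380.0 with DMSO, 2421, 2039.5 and 2202 with BaP and 4669, 4917 and 4669 with DAT (1.09 ± 0.13, adjusted p = 7.75e-06). Its start region is shown, chosen after values were seen, because it holds the Atf4 and C/EBP element, TGATGNAA on either strand, in capitals, at chr7:126625471-126625720 (minus strand, RefSeq, GRCm38.p6). The element was in 3.45% of start regions, and those of Ddit3 and Atf4 did not hold it, while those of Asns and Atf3 did.
Nupr1: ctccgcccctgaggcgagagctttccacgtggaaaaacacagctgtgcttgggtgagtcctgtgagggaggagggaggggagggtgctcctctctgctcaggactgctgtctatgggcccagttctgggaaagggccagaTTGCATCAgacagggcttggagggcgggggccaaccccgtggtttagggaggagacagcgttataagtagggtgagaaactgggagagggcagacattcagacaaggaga

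Dnajb9, a chaperone of the endoplasmic reticulum, was at 1102, 1048 and 938 with BaP and 2130.1, 2317 and 1728 with DAT, against 892, 1021 and 788 with DMSO (0.98 ± 0.16, adjusted p = 0.000315). BaP overlapped DMSO and DAT lay above both. Ddit3, the stress factor Chop, was at 1641, 1622 and 1682 with DMSO, 2432, 2275 and 2306 with BaP and 2926, 3152 and 3373 with DAT (0.43 ± 0.10, adjusted p = 0.0163). Another Ddit3 probe set gave -0.06, and the call was lost without DAT replicate 2 or 3 or BaP replicate 2 or 3 (adjusted p up to 0.0883). Atf4 itself was higher by 0.42 ± 0.09 (adjusted p = 0.0102), a call lost without BaP replicate 1 (0.0917) or DAT replicate 3 (0.0517). Xbp1, the splice-activated factor of the unfolded protein response, was lower, at 2669.6, 2755 and 2563 with BaP and 1901, 2174 and 1927 with DAT (-0.41 ± 0.09, adjusted p = 0.00993), and lost its call without DAT replicate 1 (0.0524), BaP replicate 2 (0.0528) or DAT replicate 3 (0.0503). Asns, which makes asparagine under Atf4, was at 10559.9, 10439.9 and 9852 with BaP and 9959, 10302 and 10001 with DAT, overlapping, with a difference of -0.03 ± 0.05 and a 95% interval of -0.14 to 0.08. Trib3, another Atf4 target, rose with both and gave 0.07 ± 0.14 between them.

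Of all genes tested, 2.06% were higher with DAT and 1.63% lower. Over the lists, 4 of 38 Atf4 targets were higher and none lower (9 higher with the replicate block). Of 22 unfolded protein response genes, 3 were higher and 1 lower (6 and 1 with the block). Of 31 p53 targets, 3 were higher and none lower (9 higher with the block). The medians were 0.14, 0.09 and 0.16. The p53 and unfolded protein response counts on the higher side were both 1 without BaP replicate 2, and the Atf4 count was 2 without replicate 2 or 3 of DAT or replicate 1 or 3 of BaP. The p53 targets called were Gadd45a, the antiproliferative factor Btg2 (0.90 ± 0.21, adjusted p = 0.0128) and the receptor Eda2r (0.64 ± 0.15, adjusted p = 0.0168). Btg2 lost its call without BaP replicate 2 (0.0742) or DAT replicate 3 (0.0771), and Eda2r without DAT replicate 1 or 2 or BaP replicate 2 or 3 (up to 0.11). Cdkn1a, the Cdk inhibitor p21, was at 1179.8, 792 and 825 with DMSO, 2340.1, 1693 and 1621 with BaP and 2936, 2319 and 1920.0 with DAT. Both treatments raised it, the treated arrays overlapped, and the difference of 0.34 ± 0.23 did not pass (adjusted p = 0.533, 0.0036 with the replicate block). Mdm2, the p53 inhibitor, gave 0.04 ± 0.05 with a 95% interval of -0.06 to 0.14. Rassf1, a Ras-association protein and tumour suppressor, was at 1496, 1328 and 1502 with DMSO, 1657, 1911 and 1699 with BaP and 4489, 4291 and 4523 with DAT (1.33 ± 0.12, adjusted p = 6.1e-08). Its 2 other probe sets gave -0.31 and 1.87, so the probe sets disagree. Gabarapl1, an autophagy protein, was higher by 0.59 ± 0.09 (adjusted p = 0.000298), the only called member of 24 autophagy and lysosome genes (11 with the replicate block).

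**Figure D3:**
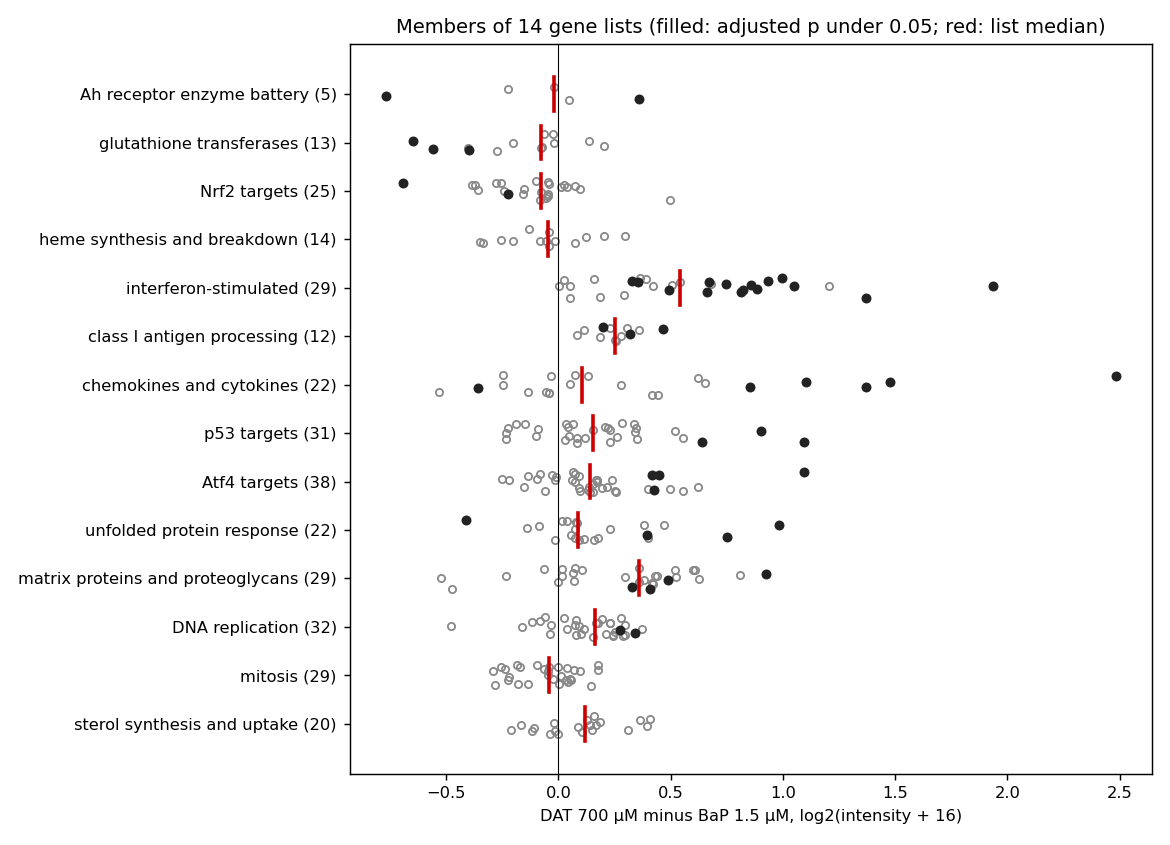
Difference between DAT and BaP (x axis, log2 units) of every tested member of 14 gene lists, with the number tested in brackets. Filled points passed the adjusted p of 0.05, open points did not, and red lines are list medians. The interferon list is shifted to the right with a median of 0.54, and the mitosis list is centred near 0.

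The genes lowest with DAT relative to BaP were mostly dim to moderate in the controls, and with DAT most lay below the array median of 74.8. Tcstv1, a gene expressed in very early mouse embryos, was at 272, 287 and 313 with DMSO, 275, 251 and 258 with BaP and 6.91, 15.9 and 38.3 with DAT. BaP stayed near the DMSO values and DAT lay far below both, a difference of -3.02 ± 0.27 (adjusted p = 6.1e-08). The size rests on the pseudocount, at -3.92 with 1 and -1.96 with 64 in place of 16, as it does for the other dim genes here. AF067061 was at 587, 549 and 647 with BaP and 88.7, 50.6 and 64.9 with DAT (-2.88 ± 0.31, adjusted p = 1.18e-06). Gm20767 was at 185, 174 and 137 with BaP and 18.2, 24.2 and 2.08 with DAT (-2.62 ± 0.34, adjusted p = 2.07e-05). D13Ertd608e was at 208, 201 and 159 with BaP and 72.9, 59.8 and 64.1 with DAT (-1.33 ± 0.21, adjusted p = 0.000322). These 4 genes lie together on chromosome 13, within a stretch of 25 genes annotated by RefSeq, and they are the 4 of that stretch that the array named with a single symbol. The stretch holds a multigene family, and the probe sets of AF067061 and D13Ertd608e are of kinds that bind several transcripts, so signal may be shared among its members.

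Zfp352, a zinc finger gene of early mouse embryos on chromosome 4, was at 279.6, 229 and 197 with DMSO, 273, 261 and 222 with BaP and 48.2, 60.4 and 26.0 with DAT (-2.18 ± 0.24, adjusted p = 2.58e-06). A second Zfp352 probe set gave -2.27. Usp17la, a deubiquitinase of a multigene family, was brighter, at 1069, 956 and 825 with DMSO, 849, 793 and 756 with BaP and 284, 328 and 313 with DAT (-1.33 ± 0.14, adjusted p = 6.35e-07). BC080696 (-2.92 ± 0.34) and Pramel18 (-2.03 ± 0.32) were also lower with DAT. Hey1, a repressor downstream of Notch, was at 261, 256 and 329 with DMSO, 350.3, 369.6 and 390.0 with BaP and 159, 109.8 and 229 with DAT (-1.14 ± 0.21, adjusted p = 0.00173). H2ax, the histone variant marked at DNA breaks, was at 1011, 962 and 1017 with BaP and 673, 358 and 513 with DAT (-0.98 ± 0.22, adjusted p = 0.00934), and lost its call without DAT replicate 2 (0.0924).

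Matrix genes were higher with DAT than with BaP where they were called. Over all genes 2.06% were higher and 1.63% lower. Of 29 matrix proteins and proteoglycans, 4 were higher and none lower (16 higher and 1 lower with the replicate block), and the median was 0.36. That count was 1 without BaP replicate 1 and 2 without DAT replicate 1 or 3. Tnc, the matricellular protein tenascin C, was at 1213, 891 and 1143 with DMSO, 657, 416 and 564 with BaP and 1269, 775 and 1116 with DAT (0.92 ± 0.18, adjusted p = 0.00353). DAT overlapped DMSO and BaP lay below both. A dimmer Tnc probe set gave -0.42, and the second probe set of fibronectin (Fn1) gave -0.74 against 0.33 ± 0.08 for the one tested, so both genes are uncertain. Adamts4, a protease of cartilage proteoglycans, was at 352, 375 and 325 with DMSO, 505, 412 and 338 with BaP and 819.6, 693 and 717 with DAT (0.82 ± 0.14, adjusted p = 0.000607), with DAT above both. Nrp2, a receptor for semaphorins and vascular growth factors, was low with BaP, at 1495, 2023 and 2032, and at 2840.2, 2665 and 2557 with DAT (0.55 ± 0.10, adjusted p = 0.00202), against 2572, 2615 and 2579.7 with DMSO. Of the 25 collagen and collagen-processing genes none was called (6 higher with the replicate block).

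Few or no members of the cell cycle and sterol lists were called, though most DNA replication genes lay above 0. Of all genes tested, 3.69% were called. Of 29 mitosis genes none was called in limma's test in either direction (1759 of all genes had an unadjusted p under 0.05), with or without the replicate block, and the kinesin Kif23, whose difference was the largest in the list, gave -0.29 ± 0.13. Of 32 DNA replication genes 2 were higher, against 2.06% of all genes, 25 lay above 0 and the median was 0.16. With the block 9 were higher and 1 lower, and without any single array none or 1 was higher. Of 20 sterol synthesis and uptake genes none was called (3 higher with the block). Against the shared DMSO arrays 11 fell with DAT and 10 with BaP, where 4.32% and 1.35% of all genes fell. Hmgcs1, which makes the first committed sterol precursor, was at 6109.9, 6925 and 4806 with DMSO, 3042, 3422 and 3007 with BaP and 3262, 3810.2 and 3149.9 with DAT. The treated values overlapped, with a difference of 0.11 ± 0.15 and a 95% interval of -0.20 to 0.41. Ptgs2, the inducible prostaglandin synthase, rose with both and differed by 0.31 ± 0.24 (95% interval -0.18 to 0.80).

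Among very long genes the median fall against DMSO was larger with BaP than with DAT. RefSeq gives a span for 99.6% of the genes tested, and 125 of them span more than 400 kb, a limit chosen after the data were seen, so the counts are a description with no test. Of these 125, 12 were higher and 3 lower with DAT than with BaP (9.6% and 2.4%), and 84 lay above 0. With the replicate block 24 were higher and 12 lower, and in the 6 arrays alone 4 were higher and none lower. Against DMSO, 35 of the 125 fell with BaP and none rose, which is 28% against 1.35% of all genes. With DAT 18 fell and none rose, which is 14.4% against 4.32%. The order of these counts depends on the fit, since with only the arrays of each comparison 12 fell with BaP and 16 with DAT, and with the replicate block 60 fell and 1 rose with BaP and 45 fell and 2 rose with DAT. The median difference of the class was -0.40 for BaP and -0.24 for DAT against DMSO. By array the median stood at -0.36, -0.37 and -0.45 with BaP and -0.21, -0.24 and -0.30 with DAT, so each BaP array lay below each DAT array. In the class of 200 to 400 kb, with 332 genes, both treatments had a median of -0.20, and 8.13% fell with BaP and 15.7% with DAT. These genes were also dimmer, with a median level in DMSO of 8.63 log2 units above 400 kb against 9.56 in the class of 5 to 20 kb. The actin control ratio was 0.38 with DAT, 0.40 with BaP and 0.29 with DMSO, and its part in the fall against DMSO was not tested.

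Rbms3, an RNA-binding protein gene of 1057 kb, was at 1008, 879 and 769 with DMSO, 326, 298 and 309 with BaP and 887, 759 and 755 with DAT (1.32 ± 0.11, adjusted p = 3.4e-08). All 3 of its other probe sets gave the same sign. Cdh13, a cadherin anchored by a lipid, spans 1185 kb and was at 1570.1, 1610.5 and 1595 with DMSO, 714, 585 and 639 with BaP and 1749, 1305 and 1560.3 with DAT (1.23 ± 0.10, adjusted p = 1.07e-08). Gpc6, a glypican of 1055 kb, was at 935, 844 and 905 with DMSO, 359, 302 and 338 with BaP and 738, 831 and 813 with DAT (1.22 ± 0.11, adjusted p = 8.68e-08), and 3 of its 4 other probe sets had the same sign. In each of these genes the BaP arrays were the lowest and did not overlap the others. The opposite order also occurred. Brinp3, chosen after its values were seen, spans 407 kb and was lower with DAT than with BaP (-0.71 ± 0.13, adjusted p = 0.00185).

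**Figure D4:**
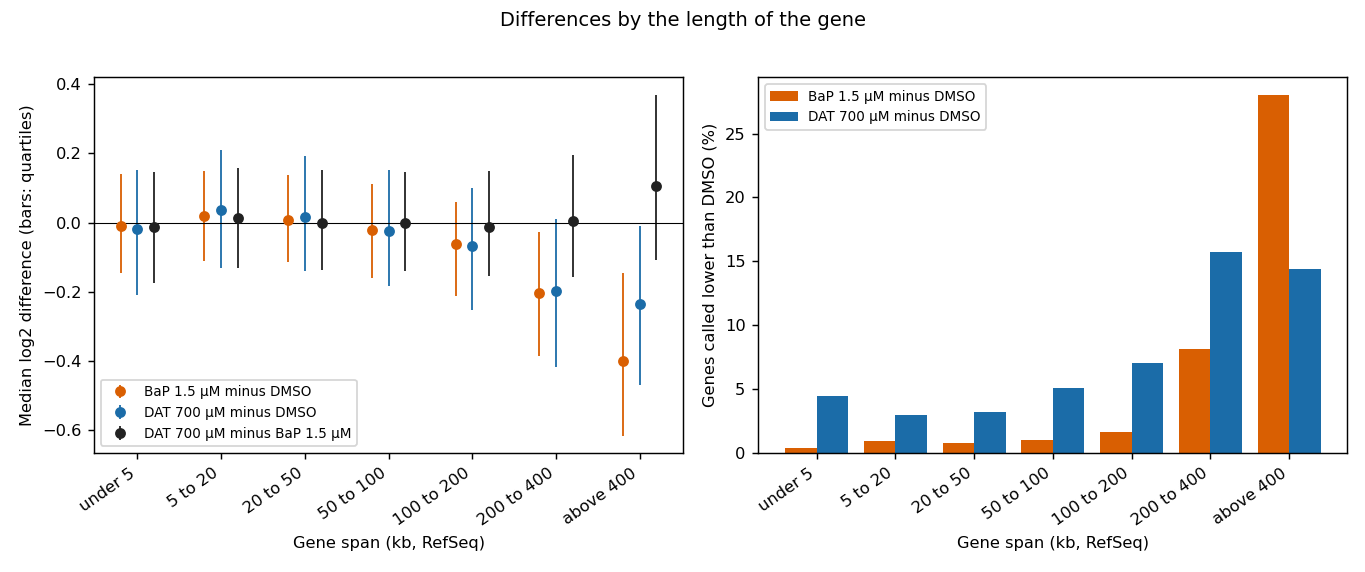
Left, the median log2 difference (points) and quartiles (bars) of genes grouped by span in kb, for BaP and DAT against DMSO and for DAT against BaP. Right, the percentage of genes in each class called lower than DMSO. Above 400 kb the median was -0.40 with BaP and -0.24 with DAT, and 28% and 14.4% of the 125 genes fell.

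The same chemicals at the literature doses, 50 µM DAT and 0.5 µM BaP for 24 h, gave values on arrays of their own. There 1036 of 11957 genes differed between DAT and BaP (8.66%), 575 higher with DAT (4.81%) and 461 lower (3.86%), and 1940 with the replicate block. The doses differ, and the literature-dose set had been scaled differently before deposit, so the values stand side by side. A higher or lower intensity in one set than in the other is therefore not read as an effect of dose. The pseudocount shrinks log2 differences more where intensities are lower, so the sizes of differences are not strictly comparable between the sets either. Of the 409 genes called at the IC20 doses and tested in both sets, 217 had the same direction (53.1%), against 52.5% of all genes tested in both. Of those 409, 109 were called again, 72 in the same direction and 37 in the opposite one.

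The interferon list kept its direction, with 21 of 29 members higher with DAT and 1 lower at the literature doses (median 0.63). Rsad2 was at 986, 758 and 707 with DMSO, 303, 299.6 and 284 with BaP and 706, 615 and 663 with DAT there, a difference of 1.12 ± 0.14 (adjusted p = 2.36e-06). All DAT arrays lay below all DMSO arrays in that set. Ccl5 gave 0.79 ± 0.11, Tnc 1.03 ± 0.07, Rbms3 0.99 ± 0.14 and Cdh13 0.87 ± 0.08, each higher with DAT (adjusted p up to 2.78e-05). Above 400 kb, 39 of 156 genes were higher with DAT and none lower, which is 25% against 4.81% of all genes. In the class of 200 to 400 kb 20.7% were higher and 1.91% lower, where the IC20 doses gave 1.2% and 2.11%. Brinp3, Pcca and Dock1, the genes above 400 kb called lower with DAT at the IC20 doses, gave 0.51, 0.27 and 0.05 there. Of these, Brinp3 and Pcca were called higher and Dock1 was not called. Nqo1 (-1.01 ± 0.13) and Aox1 (-0.49 ± 0.14) were lower with DAT in that set too.

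Cyp1a1, Cyp1b1 and Gadd45a differed otherwise at the literature doses, while Tiparp had the same sign as before (-1.21 ± 0.05). Cyp1a1 was at 39.0, 23.7 and 33.2 with DMSO, 1707, 1861 and 1681 with BaP and 248, 271 and 231 with DAT, a difference of -2.73 ± 0.12 (adjusted p = 4.01e-15), where the IC20 doses gave 0.05. Cyp1b1 was lower with DAT by a difference of -0.75 ± 0.06, where it had been higher at the IC20 doses. Gadd45a was at 275, 260.3 and 260.4 with BaP and 152, 181 and 155 with DAT (-0.66 ± 0.10, adjusted p = 7.11e-05), lower with DAT in place of higher. Of 32 p53 targets tested there 1 was higher and 7 lower, and of 37 Atf4 targets none was higher and 14 lower, against 4.81% and 3.86% of all genes. Tcstv1 was not called (0.15 ± 0.15), and Usp17la (0.57 ± 0.16) and the reductase-like gene Tecrl (0.92 ± 0.13, against -1.20 at the IC20 doses) were higher with DAT.

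**Figure D5:**
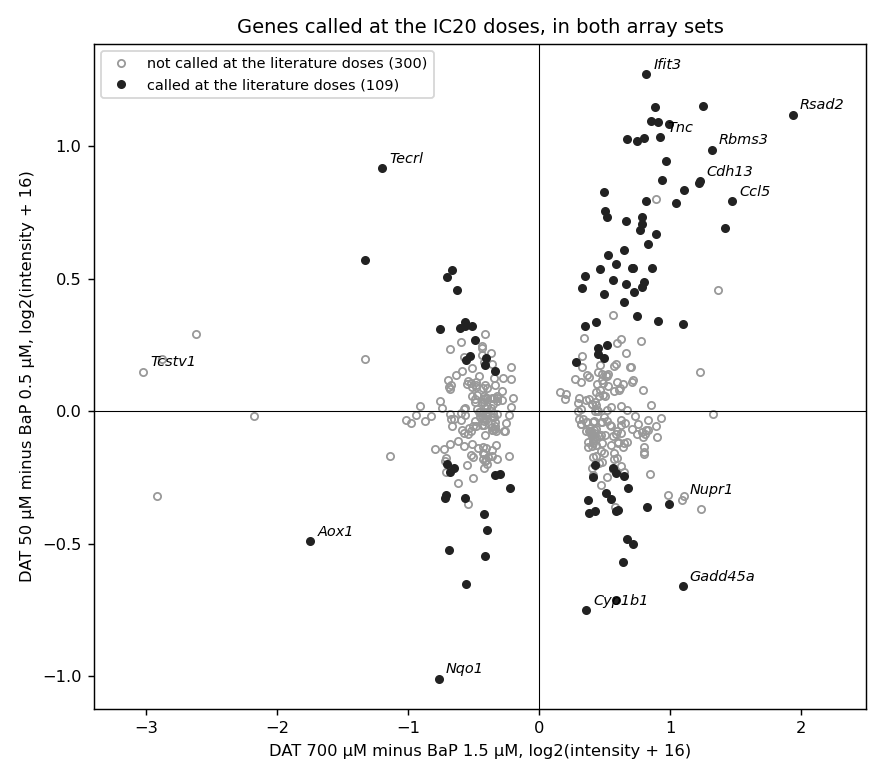
Each point is 1 of the 409 genes called at the IC20 doses and tested in both sets, with its difference between DAT and BaP at the IC20 doses (x axis) and at the literature doses (y axis), both in log2 units. Filled points, 109, were also called at the literature doses. Rsad2, Ccl5, Rbms3 and Cdh13 are higher with DAT in both, Nqo1 and Aox1 lower in both, and Gadd45a and Cyp1b1 change side.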

How the data were processed

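Total RNA was biotin labelled and hybridised to Affymetrix mouse arrays, per the labels' protocols, and the one tool listed in the submitters' processing notes is GCOS, with no version. The deposited intensity values of 45101 probe sets on 60 arrays had been scaled by the authors. The trimmed mean was 500.003 on each DMSO, BaP 1.5 µM and DAT 700 µM array of the IC20 set at 24 h. The literature-dose set had been scaled differently before deposit. The 30 arrays of the IC20 set were quantile normalized here and tested as log2(intensity + 16) with limma 3.58.1 in R 4.3.3 (lmFit and eBayes with a mean-variance trend, 10 group means, 20 residual degrees of freedom, Benjamini-Hochberg adjustment, threshold 0.05). The literature-dose set was fitted apart. Of the probe sets, 34958 carried 1 symbol, 932 several and 9211 none, and 204 symbols could not be updated. The probe set with the highest mean stood for a gene, and a gene was tested if it lay above the array median on at least 3 arrays, which left 11384. The median residual SD was 0.20, and the number of arrays limits the precision. The fit was run on simulated data with independent errors. Those data hold no link between same-numbered arrays, so that run does not cover the pairing described below.

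Members and gene lists were chosen with earlier results of these data known. Named genes were the 20 largest called differences in each direction without overlap between groups, up to 5 called members per list and direction (or the 2 largest where fewer than 2 were called), a fixed set of receptor, stress and cycle genes, and genes called in opposite directions against DMSO. Replicate numbers come from the labels, which do not say what a number shares. Deviations from the group means of same-numbered DAT and BaP arrays correlated at 0.39, 0.50 and 0.46, so same-numbered arrays moved together. Other pairs gave a mean of -0.22, which follows from the matched values, since deviations within a group cancel. The main fit holds group means only and leaves this pairing out. Its counts, SE and p-values are therefore unpaired, and values with the replicate block are given beside many of them. Alternatives covered the arrays fitted, normalization, pseudocount, filter, probe sets, trend and each array left out.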

Additional observations from a re-analysis of the deposited data

Results flagged for a closer look

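Rsad2 and Aox1 were called against DMSO in opposite directions in the 2 treatments. Rsad2 rose by 1.28 with DAT and fell by 0.65 with BaP on the log2 scale, and the direct comparison, which tests that difference, gave 1.94 (adjusted p = 3.21e-09 in limma's test). Aox1 fell by 0.80 with DAT and rose by 0.95 with BaP, and the direct comparison gave -1.75 (adjusted p = 3.33e-06). Every DAT array lay beyond every BaP array for both genes.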

How the results depend on the processing

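The 420 calls between DAT and BaP became 1908 with the replicate block and 1197 with all 60 arrays in 1 fit, both of which held all 420, and 74 in the 6 arrays alone, of which 72 were shared. Leaving out 1 array gave 241 to 284, which is over 1.5 times fewer without DAT replicate 2 (252) or 3 (262) or BaP replicate 1 (260), 2 (241) or 3 (271). The other alternatives gave 348 to 562. DAT against DMSO, 1046 calls, gave 2993 with the block, 2080 with 60 arrays, 642 in 6 arrays and 648 to 767 with 1 array left out, lowest without DMSO replicate 2 (648) and DAT replicate 1 (695). BaP against DMSO, 310 calls, gave 1407, 806, 102 and 135 to 230, with the low values without DMSO replicate 2 (135) or 1 (201) and BaP replicate 1 (152) or 2 (166). The literature doses, 1036 calls, gave 1940, 341, 1680 and 606 to 748, lowest without DAT replicate 3 (606), BaP replicate 1 (650) or 2 (678). Without further normalization the literature doses gave 475 calls, 66.7% of them higher against 55.5%, BaP against DMSO gave 65.7% higher against 50.3%, and DAT against BaP gave 562 calls with 47.2% higher against 55.7%, so that its majority turned. The causes were not tested. The block kept all 85 called named genes, 44 kept their call without each array in turn and 30 in all alternatives run. Of 2739 values of single named genes under alternatives, 2393 kept direction and side of the threshold, 263 lost the call, 73 gained one and 10 changed sign. Sign changes, all in uncalled genes, were with 1 array left out, those of Ahr (-0.165 to 0.0478), Aldh3a1 (-0.427 to 0.0480), Cyp1a1 (-0.0371 to 0.11), Hmox1 (-0.116 to 0.314), Mcm5 (-0.0126 to 0.0719) and Esam (-0.172 to 0.22), and that of Esam without further normalization (-0.0393). Of long genes, 12 to 60 fell with BaP (35 in the main setting, 60 with the block) 13 to 45 fell with DAT, and between DAT and BaP 4 to 24 were higher and 0 to 12 lower. The difference of Tcstv1 ran from -3.92 to -1.96, that of BC080696 from -4.17 to -1.75 and that of Ccl20 from 1.38 to 3.61, with the ends at the pseudocounts of 1 and 64.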
